A study of Rattus norvegicus with 60 samples.

Results

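The samples described here are the 12 hypothalami of the series taken from female Sprague-Dawley rats at 15 days of age (P15), chosen by their sample titles out of 60 samples in all. The series profiles DNA methylation after prenatal alcohol exposure in the hypothalamus at 1, 8, 15 and 22 days of age and in white blood cells at 22 days. At P15, 4 pups came from dams that drank a liquid diet containing ethanol through pregnancy (prenatal alcohol exposure, PAE9 to PAE12, titled E9 to E12), and 4 came from control dams that ate a pelleted form of the control diet freely (C9 to C12). A further 4 came from pair-fed dams, which received a liquid diet with maltose-dextrin in place of ethanol in the amount an alcohol-drinking partner had eaten (PF9 to PF12). At most 1 female was taken from a litter, all 12 animals belong to the breeding cohort Dev-4, and each of the 2 DNA extraction rounds holds 2 samples of every group. The comparison of PAE with C asks what prenatal alcohol changes, and the comparison with PF asks what remains when the dams' lower food intake is matched.

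DNA methylation in mammals sits mostly on cytosines followed by guanine, where DNA methyltransferases place it and TET enzymes begin its removal. In methylated DNA immunoprecipitation with sequencing (meDIP-seq), an antibody against 5-methylcytosine pulls down fragments, so peak height follows both how many cytosines a stretch holds and how many of them are methylated. The hypothalamus governs stress hormones, feeding, reproduction and daily rhythms, and alcohol before birth is known to alter the stress hormone response of rats for life. In bulk tissue, fewer cells with a methylated copy and less methylation in every cell cannot be told apart.

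The unit analysed is a peak's height, the number of DNA fragments covering its summit. The control libraries held 20029748, 19788727, 21249624 and 20234366 fragments in C9 to C12. The PAE libraries held 20803993, 16818584, 16867103 and 22156238 in PAE9 to PAE12. The PF libraries held 19175282, 20895404, 19106518 and 14545396 in PF9 to PF12. PAE10, PAE11 and PF12 were thus the shallow libraries, with 14545396 to 16867103 fragments each, and PAE12 was the deepest.

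Peaks numbered 181603, 189453, 178703 and 197698 in C9 to C12, against 169667, 145009, 144173 and 214435 in PAE9 to PAE12. PF9 to PF12 held 181558, 198370, 171360 and 138637 peaks. PAE12 had the most peaks of the 12 samples and the other PAE samples fewer than every control, so the groups overlapped through that library. The PAE mean was 168321 ± 32939 peaks (SD, n = 4) and the C mean 186864 ± 8531 (SD, n = 4), a difference of -18543 (two-sided exact permutation test over 70 splits, p = 0.286, whose smallest possible p is 0.0286). Adjusted over the tests of fragments, peaks and covered length, p was 0.400. Without PAE12 the difference was -33915 peaks, without PAE10 it was -10773 and without PAE11 it was -10494. It was -23233 in extraction round 1 and -13854 in round 2, with 2 samples of each group in each. Peaks covered a mean of 88020900 bp in PAE and 99237100 bp in C (exact permutation p = 0.314, adjusted p = 0.400), and the fragments averaged 19161500 and 20325600 (exact permutation p = 0.400, adjusted p = 0.400).

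**Figure D1:**
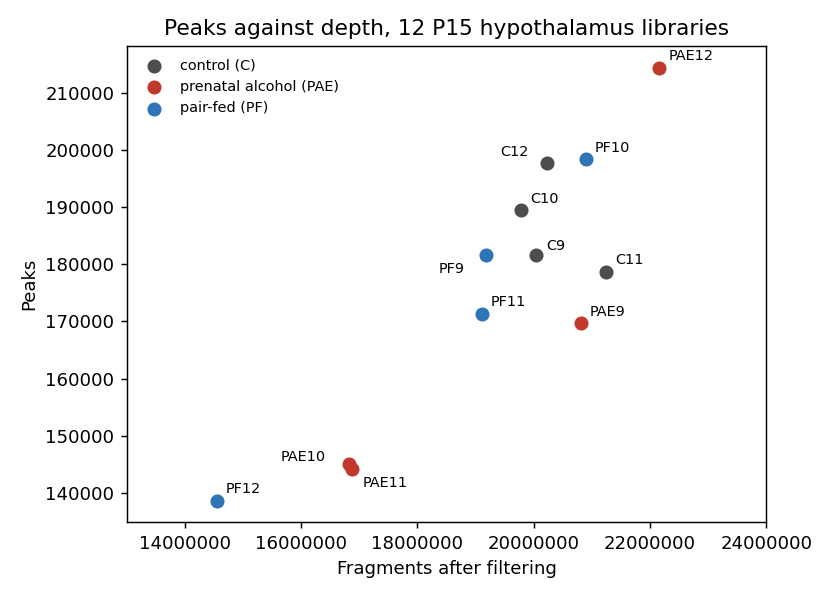
Number of peaks (vertical axis) against the number of fragments after filtering (horizontal axis) in each of the 12 P15 hypothalamus libraries, coloured by prenatal group. PAE12, with 214435 peaks, lies above all others, and PF12, PAE10 and PAE11 lie at the lower left. Neither axis starts at 0.

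The labelled tissue was checked against regions that held a peak in all 12 P22 hypothalamus samples and in none of 11 P22 blood samples. The remaining blood sample, PF15, was left out, and it held a peak in 78.0% of these regions and in 16.4% of those seen in the other blood samples only, within the range of the P15 hypothalami. Of these 1444 hypothalamus-only regions, the P15 samples held a peak in between 72.7% (PAE11) and 92.2% (PAE12). Of the 3215 regions defined the other way round, in blood cells only, the P15 samples held 5.47% (PF12) to 16.4% (PAE12), with 7.65%, 6.81% and 6.50% in PAE9, PAE10 and PAE11 and 9.95% to 16.2% in the controls. All 12 samples thus carried the hypothalamus pattern, and PAE12 stood apart from the other PAE samples at blood-only regions. PAE9, with 20803993 fragments, held 7.65% of them. Peaks assigned to the Y chromosome sequence numbered 51 to 105 per sample, against a highest value of 1631 in the 60 samples. The part of the blood-only regions in the results below was not tested, and that of depth not beyond leaving libraries out and scaling by fragments.

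Peaks of the 12 samples that overlapped by 1 bp or more merged into 438285 regions, of which 255175 held a peak in 3 or more samples and were tested. The median tested region was 692 bp long with peaks from 7 samples, and all 12 samples had a peak in 38863 of them. For each sample and region the tallest peak was taken, divided by a scaling factor of that sample, and put on the log2 scale. A sample without a peak there received a floor of 7.09 fragments, so differences against such samples depend on the floor. A region with a peak in fewer than 3 samples outside a group was tested only through that group's own peaks. This favours a higher value in that group. Between the libraries the scaling factors ran from 0.776 (PF12) to 1.25 (PAE12).

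With limma, 0 of 255175 regions (0%) differed between PAE and C at a false discovery rate (FDR) of 0.05, and the smallest adjusted p was 0.104. At an unadjusted p under 0.05, limma called 11685 regions (4.58%), 4187 higher and 7498 lower in PAE. Fisher's exact test on the presence of a peak also called 0 after adjustment. It placed 1014 regions at the smallest p it can give for 4 against 4 samples, 0.0286, with 247 holding a peak in every PAE and no C sample and 767 the reverse. Against PF, limma called 3 regions (0.00118%), 1 higher and 2 lower in PAE, and 12022 (4.71%) at an unadjusted p under 0.05, 6043 higher and 5979 lower. Between PF and C it called 7 regions (0.00274%), 5 higher and 2 lower in PF, and 12980 (5.09%) at an unadjusted p, 4789 higher and 8191 lower. The comparisons share samples, PAE with C and PF with C the controls and PAE with C and PAE with PF the exposed animals, so their counts stand side by side and are not independent. Across all regions the median difference was -0.04 for PAE minus C, -0.00 for PAE minus PF and -0.03 for PF minus C (log2), with a median standard error of 0.354. The scaling was set on the regions with a peak in all 12 samples, where the medians therefore lie near 0 (0.00055, 0.00075 and 0.00091).

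These counts turned on single libraries. For PAE against C, limma called 7 regions without C10, 7 without PAE12, 2 without PAE11 and 1 without C12, and 0 without any other single library. For PAE against PF the count of 3 became 18 without PAE12, 14 without PF11, 8 without PF10, 6 without PAE10 and 1 without PF12. For PF against C the count of 7 became 24 without PF11, 13 without PAE12, and 12 without C10 or PAE10. It became 2 without PF10, 1 without PF9 and 0 without C9, C11 or PF12. With library pool as a further term, and with the replicate number as a block (the replicate block), it was also 0. None of these 7 calls, which are named below, held in either fit. PF against C was not fitted with library pool in windows or in the set of regions with a peak in all 12 samples. Leaving out PAE10, PAE11 and PF12 together, an alternative chosen after seeing the data, gave 1, 1 and 2 regions for the 3 comparisons.

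The study defines alcohol-specific regions as those that differ in PAE against both C and PF but not between PF and C. By limma at an FDR of 0.05, 0 regions (0%) met this rule, and at an unadjusted p under 0.05, 2410 did (0.944%), 1275 higher and 1135 lower in PAE. Fisher's exact test was not combined over comparisons. Without PAE12, 6 regions met the rule at the FDR, and without PAE11 or C10, 1 did. In 332 regions (0.130%) all 4 PAE values lay above all 8 C and PF values, and in 240 (0.0941%) they lay below. The same counts taken for the other groups were 593 above and 187 below for C and 493 above and 263 below for PF. A peak in every PAE sample and in none of the other 8 was found in 33 regions, and a peak in none of the PAE samples and all 8 others in 40. The corresponding counts were 112 and 19 for C and 67 and 53 for PF.

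The region with the smallest p for PAE against C among those below all other samples was chr4:153515306-153515813 (508 bp). Its scaled heights were 20.0, 31.7, 28.0 and 20.8 fragments in C9 to C12 and 30.0, 30.8, 30.9 and 29.7 in PF9 to PF12, and no PAE sample held a peak. Every control and pair-fed sample was thus high and every PAE sample under the calling threshold. The log2 difference was -1.80 against C (limma, SE = 0.271, adjusted p = 0.104) and -2.10 against PF (adjusted p = 0.0141), with all 4 PAE samples lower in both. The call against PF was lost without PF9 (-2.09, limma adjusted p = 0.0731) or PF12 (-2.10, adjusted p = 0.0773). It was also lost with the replicate block (-2.10, limma adjusted p = 0.0724) and with peaks at q under 0.001 only (-1.60, adjusted p = 0.0631). Fold enrichment, the height over its local background, in place of height lost it as well (-1.75, limma adjusted p = 0.360). With the floor lowered to 50% of its height the difference from C passed as well, at -2.80 (limma adjusted p = 0.0357), and over the alternatives run it lay between -1.90 and -1.30 apart from that setting. At P1, P8 and P22, PAE minus C was 0.01, 0.22 and -0.72 in the same region. A separate fit over 48 samples put the P15 difference minus the mean of the other ages at -1.81, which did not pass (limma adjusted p = 0.327).

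At chr7:99525374-99526228 (855 bp) the controls stood at 45.9, 48, 45.1 and 45.1 fragments and the pair-fed samples at 35.8, 44.4, 41.1 and 39.97. PAE11 held a peak of 34.3 fragments, and PAE9, PAE10 and PAE12 held none. The PAE11 peak lay just under the lowest pair-fed sample, and the other PAE samples were under the calling threshold. The difference was -2.13 against C (limma, SE = 0.346, adjusted p = 0.150) and -1.93 against PF (adjusted p = 0.312). Without PAE11 it was -2.71 against C (limma adjusted p = 1.1e-05) and -2.52 against PF (adjusted p = 4.1e-05), so this region met the alcohol-specific rule without that library. With fold enrichment in place of height the difference from C was -0.50 (limma adjusted p = 0.953).

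PAE12 played the same part in a pair of other regions. At chr8:122492671-122493573 the controls stood at 31.0, 36.5, 27.1 and 31.6 fragments and the pair-fed samples at 34.9, 27.2, 31.9 and 24.5, while of the PAE samples only PAE12 held a peak, of 21.7. At chr10:106183601-106184512 the controls stood at 29.0, 36.5, 30.7 and 23.5 and the pair-fed samples at 26.1, 20.8, 26.7 and 29.7, and again only PAE12 held a peak, of 18.5. In both regions the deepest PAE library had a peak just under the lowest of the other 8 samples, and the remaining PAE libraries had none. The differences from C were -1.74 (limma, SE = 0.307, adjusted p = 0.306) and -1.71 (SE = 0.312, adjusted p = 0.368). Without PAE12 they were -2.13 (limma adjusted p = 0.0114) and -2.07 (adjusted p = 0.0280), and the differences from PF passed too, at -2.03 (adjusted p = 0.00956) and -1.87 (adjusted p = 0.0336). With fold enrichment the differences from C were -1.11 in both (limma adjusted p = 0.902). The last of the 5, chr11:30776438-30776924, held 23.0, 23.0, 18.0 and 26.2 fragments in C9 to C12, 14.5, 20.8, 19.5 and 15.5 in PF9 to PF12, and no PAE peak. Its controls were mostly higher than its pair-fed samples, with C11 within their range. It fell by 1.66 against C (limma adjusted p = 0.453), and with fold enrichment the difference was -2.22 (adjusted p = 0.0125). Against PF the difference was -1.29 (limma adjusted p = 0.695).

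Of the regions higher in PAE, chr7:123886346-123886802 held a peak in the exposed animals only, at 21.1, 25.3, 21.3 and 24.1 fragments in PAE9 to PAE12. At chr4:160186373-160187548 the PAE heights were 25.7, 18.4, 27.2 and 19.3, and at chr5:169859243-169859643 they were 22.0, 29.9, 16.6 and 24.1. In all 3 regions the 8 C and PF samples held no peak, so the difference is the same against both and its size is set by the floor. These regions entered the tested set only through their PAE peaks, so the filter fixed the direction in advance. It was 1.69, 1.65 and 1.67 on the log2 scale, with limma adjusted p of 0.899, 0.907 and 0.907 against C and of 0.554 in each against PF.

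At chr5:126513892-126514333 the PAE samples stood at 29.4, 26.4, 22.5 and 21.7 fragments, no control held a peak, and PF9, PF11 and PF12 held peaks of 21.3, 21.6 and 20.6. PAE bordered on PF there, and the controls were under the calling threshold. The differences from C and PF were 1.81 (limma adjusted p = 0.714) and 0.62 (adjusted p = 0.953), the latter 0.23 to 0.84 with a library left out. At chr8:32945340-32945825 the PAE samples stood at 36.7, 21.8, 27.2 and 24.9, and among the 8 others only PF11 held a peak, of 17.5. The differences there were 1.94 from C (limma adjusted p = 0.714) and 1.61 from PF (adjusted p = 0.733). That region, too, entered the tested set only through its PAE peaks. These 10 regions were picked because PAE did not overlap the other groups, so their separation is a description.

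**Figure D2:**
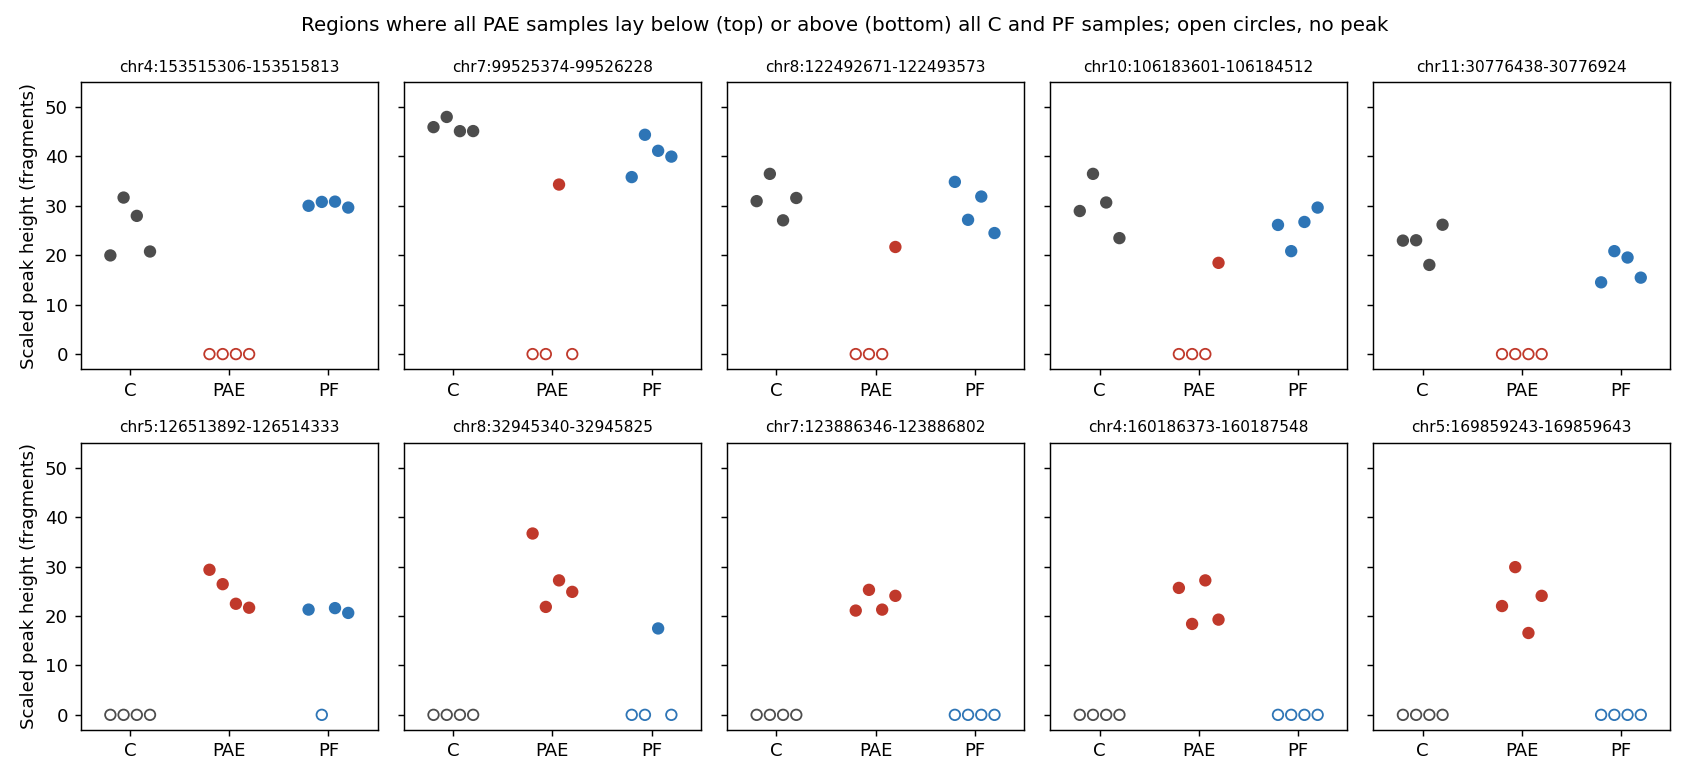
Scaled peak height (fragments) in each P15 sample for the 5 regions with the smallest p for PAE against C where all PAE samples lay below (top) or above (bottom) all C and PF samples. Filled circles are samples with a peak and open circles at 0 are samples without one. In chr4:153515306-153515813 no PAE sample held a peak and the other 8 samples stood between 20.0 and 31.7.

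Other regions passed against PF or between PF and C. At chr9:12413891-12414879 no PAE sample held a peak, the pair-fed samples stood at 82.3, 65.2, 65.8 and 102 fragments, and C9, C11 and C12 at 53.9, 49.6 and 38.8, with no peak in C10. PF was highest, most controls were lower, and C10 and the PAE samples were under the calling threshold. The PAE samples fell by 3.45 against PF (limma, SE = 0.377, adjusted p = 0.00164), and the difference from C was -2.05 (adjusted p = 0.368). Without C10 the difference from C was -2.68 (limma adjusted p = 2.0e-05). With fold enrichment in place of height the difference from PF was -0.86 (limma adjusted p = 0.947) and that from C was -0.30 (adjusted p = 0.979).

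At chr3:7593532-7593971 the C samples stood at 24.0, 24.0, 25.3 and 29.8 fragments, the PAE samples at 24.8, 34.5, 23.7 and 27.3, and no PF sample held a peak. PAE and C overlapped, and the pair-fed group alone was under the calling threshold. PAE minus PF was 1.94 (limma adjusted p = 0.0287) and PF minus C was -1.85 (adjusted p = 0.0254), while PAE minus C was 0.09 (adjusted p = 1.00). The call of PAE against PF was lost when any of C9, C10, C11, C12, PAE9, PAE10, PAE11 or PF12 was left out (1.84 to 1.99, limma adjusted p = 0.0550 to 0.209). It was also lost with the replicate block (1.94, limma adjusted p = 0.163), with fold enrichment (1.15, adjusted p = 0.947) and at q under 0.001 (1.44, adjusted p = 0.188).

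The reverse arrangement, controls without a peak and both liquid-diet groups with one, was found at chr3:76816064-76816595. PAE9 to PAE12 stood at 28.4, 20.7, 36.7 and 26.5 fragments and PF9 to PF12 at 26.1, 23.6, 21.6 and 37.4. PAE and PF covered the same range, and no control reached the calling threshold. The difference between PAE and C was 1.95 (limma, SE = 0.277, adjusted p = 0.104, which shares the lowest value over all regions with chr4:153515306-153515813 and chr16:72208185-72209305) and PF minus C was 1.90 (adjusted p = 0.0254). Without C10, PAE minus C was 2.01 (limma adjusted p = 0.0411), with fold enrichment it was 2.61 (adjusted p = 0.000279) and with the floor at 50% it was 2.95 (adjusted p = 0.0357). PAE minus PF was 0.05 (limma adjusted p = 1.00), and -0.05 without PAE11, -0.02 without PF9 and -0.00 without PF11.

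The same arrangement held at chr16:72208185-72209305, with 44.0, 36.8, 18.9 and 23.3 fragments in PAE9 to PAE12 and 43.6, 29.0, 20.6 and 42.5 in PF9 to PF12. It held too at chr18:78332676-78333401, with 26.6, 25.3, 17.7 and 25.7 in PAE9 to PAE12 and 32.9, 28.1, 28.8 and 24.5 in PF9 to PF12. The controls held no peak in either, and PAE and PF overlapped in both. In the first, PAE minus C was 2.03 (limma adjusted p = 0.104) and in the second it was 1.73 (adjusted p = 0.150). PF minus C was 2.19 and 2.00 (limma adjusted p = 0.0199 in both). Neither passed between PF and C with library pool as a further term, with the replicate block, or without C9, C11 or PF12. Without PAE11, PAE minus C in chr16:72208185-72209305 was 2.32 (limma adjusted p = 0.0276), and with the floor at 50% it was 3.03 (adjusted p = 0.0357). Without PAE11, PAE minus PF there, -0.16 with all samples, was 0.12.

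At chr15:20767020-20767612 only the pair-fed samples lacked a peak, with 28.0, 29.8, 27.1 and 27.1 fragments in C9 to C12 and 27.5, 21.8, 27.2 and 20.1 in PAE9 to PAE12. C and PAE overlapped there. PF minus C was -1.98 (limma adjusted p = 0.0199) and PAE minus PF was 1.75 (adjusted p = 0.0857), against -0.22 for PAE minus C (adjusted p = 0.986). On chromosome 9, chr9:1433495-1434149 stood at 58.9 to 71.3 in C, 63.3 to 86.4 in PAE9 to PAE11, 142 in PAE12, and 131 to 189 in PF. PAE12 was at the pair-fed level, PAE10 and PAE11 just above the controls and PAE9 among them. PAE minus PF was -0.94 (limma adjusted p = 0.425), and -1.19 without PAE12 (adjusted p = 0.00703). Within the regions with a peak in all 12 samples its adjusted p was 0.0247, and with fold enrichment the difference was -0.06 (limma adjusted p = 0.995). At chr9:8512409-8512910 PF9 to PF12 held 58.1, 58.0, 51.4 and 32.2 fragments, and of the other 8 samples only PAE12 held a peak, of 24.1. PAE minus PF was -2.34 (limma adjusted p = 0.116), and -2.76 without PAE12 (adjusted p = 0.00889). PF minus C was 2.78 there and 1.36 at chr9:1433495-1434149 (limma adjusted p = 0.0199 in both).

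Regions with a peak in all 12 samples need no floor. Tested by themselves, 38863 such regions gave 1 call for PAE against C, 5 for PAE against PF and 21 for PF against C by limma, with 1976, 2134 and 2218 at an unadjusted p under 0.05. The region for PAE against C was chr18:16406267-16408839 (2573 bp), at 46.9, 52.8, 48.7 and 66.8 fragments in C9 to C12, 25.7, 31.0, 24.8 and 16.9 in PAE9 to PAE12, and 33.9, 50.7, 54.5 and 28.4 in PF9 to PF12. All PAE samples lay below all controls, PF10 and PF11 were at the control level, and PF12 was within the PAE range. Relative to C, PAE was at -1.15 (limma, SE = 0.212), with an adjusted p of 0.0203 within these regions and 0.368 within all 255175, and PAE minus PF was -0.75 (adjusted p = 0.422 and 0.953). When limma was given only the samples that held a peak, over all regions, the adjusted p for PAE minus C was 0.00437.

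A region named after its values were seen, chr6:124693991-124694939, held a peak in every sample and was higher in the exposed animals. It stood at 14.0, 11.5, 20.8 and 11.7 fragments in C9 to C12, 27.5, 32.2, 30.8 and 33.7 in PAE9 to PAE12, and 11.6, 17.2, 12.3 and 14.2 in PF9 to PF12. Every PAE sample exceeded every C and PF sample, and C and PF overlapped. The log2 difference was 1.14 from C and 1.18 from PF (limma, SE = 0.280 for both), with adjusted p of 0.0644 and 0.0247 within the regions with a peak in all 12 samples and of 0.979 and 0.659 within all regions. When limma was given only the samples that held a peak, over all regions, the adjusted p was 0.0256 against C and 0.0359 against PF, and the region met the alcohol-specific rule. At P1, P8 and P22, PAE minus C was -0.39, 0.17 and -0.29 in the same region. The separate fit over 48 samples put the P15 difference minus the mean of the other ages at 1.28 (limma adjusted p = 0.451). By contrast, chr6:2667173-2672794 had C samples at 147 to 262, PAE samples at 119 to 256 and PF samples at 38.7, 32.6, 137 and 45.1, so that PF alone was low, apart from PF11. Its difference of 1.76 between PAE and PF (limma adjusted p = 0.00136 within these regions) had a counterpart of 0.05 between PAE and C.

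Neighbouring regions were averaged in 2722 windows of 1 Mb, each with 20 or more tested regions. By limma, 0 windows (0%) differed between PAE and C, 0 (0%) between PAE and PF, and 2 (0.0735%) between PF and C at an FDR of 0.05. At an unadjusted p under 0.05, limma called 151 windows (5.55%) for PAE against C, 145 lower and 6 higher in PAE, 72 (2.65%) for PAE against PF, 59 lower and 13 higher, and 182 (6.69%) for PF against C, 164 lower and 18 higher in PF. Window means include the floor where a sample held no peak, and its part in these splits was not tested. Over regions with a peak in all 12 samples the median PAE minus C was 0.00055, set near 0 by the scaling. Fisher's exact test was not run on windows. Of the 142 windows on the X chromosome, 23 were among the 145 lower in PAE than in C and 0 among the higher ones, 4 were lower in PAE than in PF, and 19 were lower and 1 higher in PF than in C. The median difference over the X windows was -0.06 for PAE minus C, -0.00 for PAE minus PF and -0.05 for PF minus C, against -0.04, -0.00 and -0.04 over all windows. The count at the FDR for PAE against C became 4 without PAE12, 2 without PAE9 and 1 without C9, C10, PAE11, PF9 or PF12. For PAE against PF it became 2 without PF9, PF10 or PF12 and 1 without PAE9 or PF11.

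The window with the smallest p for PAE against C was chrX:82000001-83000000, with 24 regions. Its mean log2 height was 3.81, 3.56, 3.72 and 3.62 in C9 to C12, 3.36, 3.42, 3.41 and 3.54 in PAE9 to PAE12, and 3.67, 3.57, 3.65 and 3.47 in PF9 to PF12. All PAE samples lay below all controls, and PF12 fell within the PAE range. The difference from C was -0.24 (limma, SE = 0.0568, adjusted p = 0.0550) and PAE minus PF was -0.16 (adjusted p = 0.923). The next lower window, chrX:148000001-149000000, gave -0.21 against C (limma adjusted p = 0.387). The higher ones, chr1:76000001-77000000 and chr2:169000001-170000000, gave 0.25 (limma adjusted p = 0.559) and 0.16 (adjusted p = 0.818), and in both PF minus C was as large, at 0.33 and 0.16 (adjusted p = 0.0127 and 0.699). In the first of them C9 to C12 stood at 3.85, 3.23, 3.66 and 3.80, PAE9 to PAE12 at 4.31, 3.54, 3.16 and 4.53, and PF9 to PF12 at 3.74, 4.26, 4.26 and 3.59. PAE9, PAE12, PF10 and PF11 lay above all controls there, PAE11 below all of them, and PAE10, PF9 and PF12 among them. The limma SE of 0.0739, moderated over all windows, is small beside the 0.327 that this window's own residuals give.

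The share of all peaks that lay on the X chromosome was lowest in PAE on average. It was 2.20%, 2.25%, 2.25% and 2.29% in PAE9 to PAE12, 2.56%, 2.27%, 2.36% and 2.43% in C9 to C12, and 2.33%, 2.42%, 2.43% and 2.53% in PF9 to PF12. All PAE values lay below all PF values, and C10 alone of the controls fell within the PAE range. The mean was 2.25% ± 0.0345 in PAE against 2.41% ± 0.122 in C and 2.43% ± 0.0825 in PF (SD, n = 4 each; two-sided exact permutation p = 0.0571 and 0.0286, the latter the smallest possible). Adjusted over the 4 ages, p was 0.190 against C and 0.114 against PF. Within extraction round 1, PAE minus C was -0.237 percentage points and within round 2 it was -0.0865.

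The P15 differences were set beside those of the same regions in other animals at the other ages. Of the 2410 regions with the alcohol-specific pattern at an unadjusted p, the difference between PAE and C had the same sign as at P15 in 1066 of 2172 at P1 (49.1%, against 50.1% of all regions), in 1186 of 2293 at P8 (51.7%, against 49.97%) and in 1192 of 2261 at P22 (52.7%, against 50.5%). With fold enrichment the share was 48.6% at P8 and 50.5% at P22, and with a peak in all 12 it was 55.9% at P8. Of the 10 regions described first, the sign was shared by 3 of 10 at P1, 4 of 10 at P8 and 7 of 9 at P22. Tested over 48 hypothalamus samples with limma, the difference between PAE and C at P15 departed from its mean at the other ages in 49 regions (0.0192%), 14 upward and 35 downward, and in 19697 (7.72%) at an unadjusted p under 0.05. Some animals of different ages share a breeding and an animal number, and no alternative with a term for litter was run. This fit had no term for breeding cohort, and each other age holds a cohort besides Dev-4. All P22 samples were also immunoprecipitated in a separate round. A departure at P15 can thus not be assigned to age alone. Regions were defined and filtered on the P15 peaks alone and then read at the other ages. This favours a departure at P15, so the counts of 49 and 19697 are descriptions. The named region chr4:160186373-160187548 is one of the 49 regions, with 1.65 at P15 against -0.37, -0.38 and 0.00 at P1, P8 and P22. It was chosen for its P15 difference, which enters this comparison of ages, so its place there is a description.

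The study lists differentially methylated regions (DMRs) that it selected over all 4 ages of hypothalamus, the developmental list. Because the P15 samples took part in that selection, what follows is not independent evidence. Of 118 listed DMRs, 53 overlapped a tested P15 region and 26 held no peak in any of the 12 samples. With the direction of each taken from the mean PAE minus C difference at P1, P8 and P22, 44 of the 53 (83.0%) changed the same way at P15, against 50.3% of all regions. Their median oriented difference was 0.30 against 0.00 over all regions (log2), and 32 had an upward and 21 a downward direction. The study's own directions were not used here, and over its whole list it reports more DMRs lower than higher in PAE. The comparison with PF, which shares the PAE samples, gave 42 of 53 (79.2%, against 49.9%) and a median of 0.39. By limma 12 of the 53 had an unadjusted p under 0.05 against C, 9 against PF and 6 in both with the same direction, shares of 22.6%, 16.98% and 11.3% beside 4.58%, 4.71% and 0.950% of all regions. Between PF and C, 2 of the 53 did (3.77%, beside 5.09%), and 0 passed an FDR of 0.05. In the 2 extraction rounds taken apart, where regions without any difference count as not sharing the direction, 37 of 53 (69.8%) shared it in each, against 46.3% and 47.3% of all regions, with medians of 0.36 and 0.42.

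Summarised per sample as the median of the oriented log2 heights, this list stood at -0.13, -0.09, -0.26 and -0.10 in C9 to C12, 0.28, 0.20, 0.19 and 0.39 in PAE9 to PAE12, and -0.30, -0.09, -0.22 and 0.02 in PF9 to PF12. All PAE samples lay above all C and PF samples, PAE12 highest and PF12 nearest from below.

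**Figure D3:**
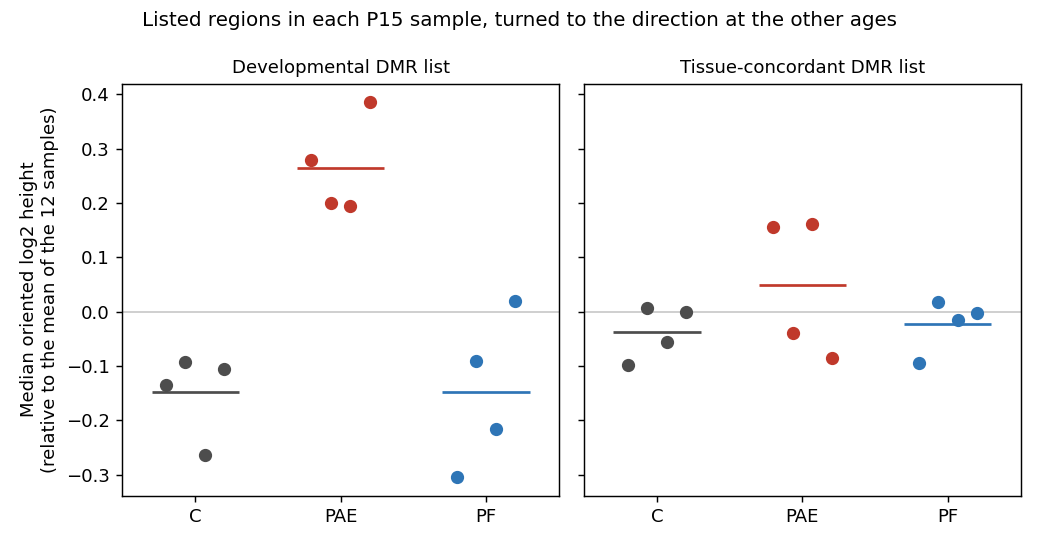
Median log2 height of the listed DMRs in each P15 sample, relative to the mean of the 12 samples and turned to the direction seen at the other ages (left) or at P22 (right). Points are samples and bars are group means. For the developmental list the PAE samples lie between 0.19 and 0.39 and the others between -0.30 and 0.02. The vertical axis has both signs and 0 is marked.

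Among the 6 developmental DMRs with an unadjusted p under 0.05 in both comparisons, named here after their values were seen, 2 lie in genes. An intron of Zmynd12, which encodes a protein with a MYND zinc finger, held 14.7, 23.0, 21.3 and 15.3 fragments in PAE9 to PAE12 at chr5:138504710-138505334, with a peak of 14.4 in C10 and of 12.9 in PF12 and none in the other C and PF samples. Every PAE sample stood above every other sample, PAE9 only just. These heights gave 1.10 against C and 1.14 against PF (limma adjusted p = 0.979 and 0.953). The region entered the tested set only through its PAE peaks, which favoured this direction. An intron of Scml4, which encodes a protein of the Polycomb family, held 18.3, 33.3, 28.4 and 32.9 fragments in PAE9 to PAE12 at chr20:47637335-47638142. C10, C11 and C12 stood at 17.3, 24.4 and 20.8, PF10, PF11 and PF12 at 15.4, 19.5 and 16.8, and C9 and PF9 held no peak. Most PAE samples exceeded all others there, while PAE9 lay within the range of C and PF. The differences were 0.80 from C and 1.00 from PF (limma adjusted p = 0.979 and 0.953).

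The other 4 are intergenic and higher in PAE. At chr16:8103448-8103813 only PAE9, PAE11 and PAE12 of the 12 samples held a peak, at 27.5, 34.3 and 25.7 fragments. At chr6:119447298-119447714 the same 3 samples alone held one, at 13.8, 11.8 and 18.5. PAE10, a shallow library, was without a peak in both, as was every C and PF sample. At chr11:31025010-31025462 the PAE samples held 17.4, 20.7, 22.5 and 14.5, with 15.0 in C9 and 12.6 in PF9 and no peak in the others, so that C9 reached into the PAE range. At chr2:75595334-75596058 PAE9, PAE11 and PAE12 held 17.4, 22.5 and 15.3, with 12.0 in C9 and 9.06 in PF10. The differences from C were 1.52, 0.77, 1.11 and 0.83 in these 4 regions, with a limma adjusted p of 0.979 in each. All 4 had a peak in fewer than 3 samples outside PAE, so they entered the tested set only through their PAE peaks. The filter thus favoured their direction, and their place among the DMRs called in both comparisons is a description.

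A further list of the study, the tissue-concordant DMRs, was selected on hypothalamus and blood cells of P22 animals. Some of these share breeding and animal number with P15 animals and are taken here as their littermates. Of 299 such DMRs, 194 overlapped a tested P15 region and 49 held no peak in any of the 12 samples. Of 188 with a direction from the P22 hypothalamus, 109 (58.0%) changed the same way at P15 against 50.3% of all regions, with a median oriented difference of 0.06 against 0.00. Relative to PF, 106 (56.4%, against 49.6%) did so. The median against C turned to -0.0241 with samples without a peak left out, and was 0.01 without replicate number 9. In extraction round 1 the count was 112 of 188 (59.6%, against 46.7% of all regions, median 0.16) and in round 2, whose PAE and C samples have no P22 littermate in the series, 86 of 188 (45.7%, against 47.7%, median -0.02). The excess over all regions was thus present in 1 round only. The list's median was -0.10, 0.01, -0.06 and 0.00 in C9 to C12 and 0.16, -0.04, 0.16 and -0.08 in PAE9 to PAE12. PAE9 and PAE11, both of round 1, were high, and PAE10 and PAE12 were among the controls. By limma 8 of the 194 (4.12%, beside 4.58% of all regions) had an unadjusted p under 0.05 against C, 13 (6.70%, beside 4.71%) against PF, 5 (2.58%, beside 0.950%) in both and 12 (6.19%, beside 5.09%) between PF and C. At an FDR of 0.05, 0 passed.

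Among those 5, named after their values were seen, chr13:5171304-5172868 held 33.9, 39.4, 27.1 and 28.9 fragments in C9 to C12, 30.0, 35.3, 21.6 and 27.1 in PF9 to PF12, 19.3 in PAE9 and 31.0 in PAE10, and no peak in PAE11 and PAE12. At chr13:2630006-2630706 the controls held 41.9, 37.4, 19.9 and 18.1, the pair-fed samples 27.1, 14.5, 33.9 and 42.5, and of the PAE samples only PAE10 held a peak, of 32.2. In both, PAE10 stood with the C and PF samples and the other PAE samples were low or without a peak. The differences from C were -1.28 and -1.40 (limma adjusted p = 0.979 for both), and at P22 they were -0.72 and -1.09. A pair of regions on chromosome 1, chr1:213019368-213019788 and chr1:213270306-213271162, went up by 1.14 and 0.94 against C (limma adjusted p = 0.979 for both). The first held 16.5, 19.5, 15.4 and 12.0 fragments in PAE9 to PAE12 and otherwise a peak of 15.5 in PF9 alone, and the second held 15.6, 14.9, 11.8 and 23.3 in PAE9 to PAE12, 13.4 in C10 and 9.68 in PF9. PAE9 to PAE12 all held a peak in both, with PF9 inside their range in the first and C10 in the second. Both regions entered the tested set only through their PAE peaks, which favoured a rise in PAE. The fifth, chr12:16828731-16829368, held a peak in every sample and gave -0.53 against C and -0.64 against PF (limma adjusted p = 0.979 and 0.953).

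The study places DMRs of both lists in genes, of which 68 with 73 DMRs were followed at P15. A tested region was found for 33 of the DMRs, in 30 genes, and 18 DMRs held no peak in any of the 12 samples. Of the 33, 21 were lower and 12 higher in PAE than in C, with a median of -0.20 against -0.04 over all regions. Relative to PF the median was -0.01, against -0.00 over all regions. By limma 1 had an unadjusted p under 0.05 against C, 3 against PF and 0 against both, beside 4.58%, 4.71% and 0.950% of all regions, and the smallest adjusted p against C was 0.979. Zmynd12 and Scml4 are not among the 68 genes. Over all 56 matched DMRs that the study places in a gene, 34 were lower and 22 higher in PAE than in C, with a median of -0.08, and by limma 3 had an unadjusted p under 0.05 against C, 5 against PF and 2 against both.

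Several genes of interest had few or no peaks at their DMRs. Ifih1, which encodes the cytosolic sensor of long double-stranded RNA MDA5, and the cytokine receptor genes Il20ra and Il18r1 had no peak at their DMRs in any of the 12 samples. The same was true of Fgf9, a growth factor gene, and of Mycbp, which encodes a MYC-binding protein. For Drd4, the dopamine D4 receptor gene, C12 and PF12 alone held a peak, of 11.0 and 10.0 fragments before scaling. At Plvap, whose product forms the diaphragms of fenestrated capillaries, C11 alone held one, of 9.0, and at the chemokine receptor-like gene Ccrl2 C10 and PAE12 held 12.0 and 19.0. The DMRs of these genes overlapped no tested region, and a difference between PAE and C at P15 cannot be read from these peaks. The study also assayed the DMRs of Drd4, Ifih1, Mycbp and Plvap by bisulfite pyrosequencing in PAE and C animals, P15 included. At P15 it reports higher methylation over the Drd4 DMR in PAE than in C. For Ifih1 it reports a significant difference at P15 only, and for Mycbp and Plvap some significant sites at various ages. Outside Drd4 the direction did not always match its meDIP-seq result. Those assays were not re-analysed here.

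Adh4 encodes an alcohol dehydrogenase. Its DMR, at an intron-exon boundary and the 3′ UTR, overlapped chr2:243719436-243719962, where C9, C11 and C12 held 22.0, 14.4 and 9.03 fragments, PAE12 held 13.6, and C10, PAE9 to PAE11 and all 4 PF samples held no peak. Most controls were above the calling threshold and most PAE and all PF samples below it, with PAE12 within the control range. PAE minus C was -0.51 (limma, SE = 0.345, adjusted p = 0.979), PAE minus PF was 0.24 (adjusted p = 0.972), and PF minus C was -0.75 (adjusted p = 0.920). With a library left out, PAE minus C ran from -0.82 to -0.23, and PAE minus PF was -0.07 without PAE12. The study assayed this DMR by bisulfite pyrosequencing in hypothalamus and white blood cells of P22 animals, not at P15. It reports a difference at a single site in the hypothalamus, in the opposite direction to its meDIP-seq result. The assay used the primers below, given because they mark where the DMR was assayed. In them t stands in place of unmethylated c after conversion, and F marks the forward and S the sequencing primers.
Adh4 F1: tgatgttatagatggggaaagat
Adh4 S1: atggggaaagatgataata
Adh4 S2: agataagtagtatttattgttgtatt

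Of the other genes of alcohol, drug and sugar metabolism, the DMR assigned to Ugt1a1 and further glucuronosyltransferase genes of the Ugt1a family gave 0.22 and Pgm1, a phosphoglucomutase gene, gave -0.20 for PAE minus C, each from a region with a peak in 3 samples.

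Cntnap5c belongs to the contactin-associated protein family of neuronal adhesion molecules, and 4 DMRs lie in it, of which 2 overlapped a tested region. At chr13:6426196-6427034 C9 to C12 stood at 22.0, 16.3, 11.7 and 10.8 fragments, PF9 to PF12 at 15.5, 10.9, 15.4 and 23.2, PAE10 at 23.0 and PAE12 at 8.03, with no peak in PAE9 and PAE11. The PAE samples spread from no peak to the top of the other groups. PAE minus C was -0.57 and PAE minus PF was -0.67 (limma, SE = 0.427, adjusted p = 0.986 and 0.953), and with a library left out they ran from -1.03 to -0.35 and from -1.13 to -0.45. At chr13:7065370-7065798 C9, PF9 and PF12 alone held a peak, of 14.0, 19.4 and 16.8, which gave -0.24 against C and -0.67 against PF (limma adjusted p = 0.986 and 0.953), and -0.45 to -0.08 against C with a library left out. In the remaining 2 DMRs of this gene, C9 and PF12 held a peak in one, of 16 and 15 fragments before scaling, and C10 in the other, of 12.0. No PAE sample held a peak in 3 of the 4.

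In the synapse, adhesion and axon guidance group as a whole, 10 of 16 DMRs were matched, in 7 of 11 genes, with 7 lower and 3 higher in PAE than in C and a median of -0.16. Caln1, which encodes the calcium-binding protein calneuron, carried 3 of them, at -0.40, -0.42 and -0.07. Dscam and Sema3e, genes of axon guidance and neuronal self-avoidance, went the other way, at 0.52 and 0.43. Magi2, a synaptic scaffold gene with a peak in all 12 samples, gave -0.08.

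For excitability and transmission, 4 of 12 DMRs were matched, with 3 lower and 1 higher in PAE than in C and a median of -0.21. The median PAE minus PF was 0.03. Hcn2, a pacemaker channel gene, held a peak in every sample, at 32.0, 40.3, 33.4 and 41.5 fragments in C9 to C12, 45.0, 42.5, 37.9 and 47.4 in PAE9 to PAE12, and 31.9, 53.4, 37.0 and 47.7 in PF9 to PF12. PAE tended above C, with PAE11 inside the control range, and PF covered both. PAE minus C was 0.24 (limma, SE = 0.176, adjusted p = 0.986). Lpar1, a lysophosphatidic acid receptor gene, gave -0.02 in the merged region around its DMR, which held a peak in all 12 samples, while at the DMR itself PAE9 and PAE11 held none. Kcnd3, which encodes a potassium channel of the A-type current, held a peak in 3 control, 2 pair-fed and 0 PAE samples and gave -0.40 (limma adjusted p = 0.979).

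Among signalling genes 7 of 11 DMRs were matched, with 4 lower and 3 higher. Mid2, an X-linked ubiquitin ligase gene, was the 1 gene of the 68 with an unadjusted p under 0.05 against C, and its region chrX:112031227-112031905 held 21.0, 15.4, 17.1 and 13.5 fragments in C9 to C12 and 13.6, 18.1 and 11.6 in PF9, PF10 and PF12. PF11 and PAE9 to PAE11 held no peak, and PAE12 held 15.3. All controls had a peak and only the deepest PAE library did. PAE minus C was -0.94 (limma, SE = 0.415, adjusted p = 0.979) and PAE minus PF was -0.47 (adjusted p = 0.971). Gprc5a, an orphan G protein-coupled receptor gene, held a peak in 2 control, 3 pair-fed and 0 PAE samples and gave -0.53 against C and -0.94 against PF (limma adjusted p = 0.986 and 0.953). The phosphodiesterase genes Pde7b and Pde8b gave 0.30 and -0.37 against C, the first with a peak in all 12 samples.

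In the nucleus and RNA group 6 of 13 DMRs were matched, 4 lower and 2 higher. Etv6, a transcriptional repressor gene, held 24.0, 25.0, 24.4 and 41.5 fragments in C9 to C12, 22.9, 28.4 and 26.5 in PAE9, PAE11 and PAE12 with no peak in PAE10, and 27.1, 29.9, 39.1 and 41.3 in PF9 to PF12. PAE11 was the only PAE sample within the PF range, while PAE overlapped C. PAE minus C was -0.58 and PAE minus PF was -0.85 (limma adjusted p = 0.979 and 0.953). Mlh3, a mismatch repair gene, held 24.0, 17.3 and 12.6 in C9, C10 and C12, 20.1 in PAE12 and no peak elsewhere, and so the same number of samples with a peak in each group as Adh4.

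The smaller groups held few matched DMRs. For immune and inflammatory genes 2 of 8 were matched, both higher in PAE than in C, with Tifa at 0.13 and Rassf5 at 0.08. Their median PAE minus PF was -0.20, the other direction. For the vessel wall and matrix 1 of 7 was matched, Podxl, at -0.50 with a peak in 2 control, 1 pair-fed and 0 PAE samples (limma adjusted p = 0.979).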

How the data were processed

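The authors aligned reads to Rn6 with BWA, filtered them with SAMtools and called peaks in each sample with MACS 2.1.0.20140616 at a q-value of 0.05. The signal deposited for each summit is the number of fragments covering it, not scaled to library size. The fold enrichment the authors give divides that height by a local background estimate. The deposited -log10 q-value of a summit comes from the authors' peak calling. Summits of one peak were joined here, peaks merged at 1 bp overlap, and regions kept with a peak in 3 or more of the 12 P15 samples. Heights were divided by a factor per sample, its median log ratio to the average sample where all 12 held a peak, floored at 7.09 fragments, and fitted with limma 3.58.1 in R 4.3.3 (empirical Bayes with trend) with group and extraction round, adjusted by Benjamini-Hochberg. Windows of 1 Mb used the mean over their regions. Tables and exact permutation tests were made in Python 3.11.15 (scipy 1.17.1, pandas 2.3.3, numpy 2.4.6, and matplotlib 3.10.9 for plots).

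The members and lists were chosen with earlier results of these data known. Named genes are those in which the study places a DMR. Values in every sample were planned for 10 of them and for any with an unadjusted p under 0.05 in both comparisons. Those of Hcn2, Mid2, Etv6 and Mlh3 were given outside this rule. Further, the 5 regions in each direction with the smallest p for PAE against C among those where PAE did not overlap the other groups were named, and windows past the FDR or else the 2 with the smallest p in each direction. Regions past the FDR in another comparison were added. Cell type markers and promoters of hypothalamic genes were not read, since no annotation of Rn6 was used here.

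Alternatives were fold enrichment, q under 0.001, a peak in 6 or in all 12 samples, a lower floor, no floor, scaling by fragments, quantile normalization, no round, library pool, a replicate block, 2 groups only, no trend with robust fitting, other window sizes, a larger overlap with DMRs, Fisher's exact test, and leaving out samples.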

Additional observations from a re-analysis of the deposited data

Results flagged for a closer look

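In 78 groups of 4 samples examined for a sample far from its group, 3 stood out, and chance gives about 1 in 20 groups. PF11 held 8969 peaks per 1000000 fragments, against 9468 to 9531 in PF9, PF10 and PF12. PAE12 held a peak in 16.4% of the regions seen only in blood cells at P22, against 6.50% to 7.65% in the other PAE samples. At chr18:78332676-78333401 the log2 height of PAE11 was 4.15, against 4.66 to 4.73 in the other PAE samples.

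The difference between PAE and C at chr4:160186373-160187548 departed at P15 from its mean at the other ages by 2.04 (limma adjusted p = 0.00586). The region was chosen for its difference at P15, which this test uses again, so nothing is read from it.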

How the results depend on the processing

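A region under the calling threshold has no value, which limits these results. For 18 named regions, Adh4 and 2 Cntnap5c DMRs, 756 alternative values of 42 differences were computed, with fold enrichment, q under 0.001, scaling by fragments, quantile normalization, no round, the replicate block and single libraries left out, and not with other floors or region filters: 720 kept direction and side of the threshold, 17 kept direction and lost the call, 13 gained one and 6 changed sign. The causes were not tested.

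Regions differing between PAE and C, PAE and PF, and PF and C numbered 0, 3 and 7, and alcohol-specific ones 0. They were 4, 4, 6 and 2 with fold enrichment, 3, 4, 7 and 1 with the floor lowered to 50%, 13, 13, 35 and 1 with samples without a peak left out, 1, 5, 21 and 0 with a peak in all 12, and 0, 1, 2 and 0 at q under 0.001. They were 0, 1, 0 and 0 with library pool, 0, 1, 3 and 0 with 2 groups only, 1, 6, 8 and 0 without trend and with robust fitting, and 1, 1, 2 and 1 without PAE10, PAE11 and PF12, chosen after seeing the data. With the replicate block they were 0, 2, 0 and 0, and PAE against PF lost its call at chr4:153515306-153515813 (-2.10, limma adjusted p = 0.0724) and chr3:7593532-7593971 (1.94, adjusted p = 0.163). Replicate numbers do not pair samples: over the 12 pairs with the same number residuals correlated at -0.0024 on average, against 0.0008 in other pairs. Leaving out a library or replicate number gave 0 to 7, 0 to 18, 0 to 24 and 0 to 6.

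Windows differing between PAE and C and between PAE and PF, 0 and 0, were 1 and 0 at 5 Mb, 0 and 2 with the replicate block, 1 and 0 without the shallow libraries, and 0 to 4 for each with a library or a replicate number left out. The difference in peaks per sample ran from -33915 to -10494. The developmental list's median, 0.30, was 0.42 within round 2 and 0.27 to 0.37 with a replicate number left out. The tissue-concordant list's median, 0.06, was 0.16 within round 1, -0.0241 with samples without a peak left out, and 0.01 to 0.11 with a replicate number left out. The share of leading regions with the same sign was 48.6% at P8 and 50.5% at P22 with fold enrichment, and 55.9% at P8 with a peak in all 12.

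Signs changed for PAE minus C at chr3:7593532-7593971 without PAE10 (-0.0109, with 0.14 the highest value leaving out any library). For PAE minus PF they changed without PAE11 at chr16:72208185-72209305 (0.124, lowest -0.35) and chr3:76816064-76816595 (-0.0468, highest 0.18), at the latter also without PF9 (-0.0164) or PF11 (-0.00274), and at Adh4 without PAE12 (-0.0721, highest 0.37).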

Other observations

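At the start of chromosome 9 the pair-fed samples, and mostly PAE12 with them, stood above the others. Of the 21 regions with a peak in all 12 samples that differed between PF and C by limma, 10 lay between positions 1433495 and 12493622 of chromosome 9, and all 10 were higher in PF, by 0.74 to 1.36 on the log2 scale. Of all 38863 regions with a peak in every sample, 255 (0.656%) started in the first 13 Mb of this chromosome. In all, 15 of the 21 were higher and 6 lower in PF, so regions elsewhere were higher in PF too. At chr14:94369818-94371239 PAE12 stood at 238 fragments, within the PF range of 191 to 269. On chromosome 9, PAE12 lay above the lowest PF sample in 8 of the 10, and PAE9 to PAE11 in 0. With fold enrichment in place of height PF minus C in the 10 regions was -0.12 to 0.32, and 0 passed (smallest limma adjusted p = 0.936). At chr9:12374705-12375620 C9 to C12 stood at 133, 149, 137 and 162 fragments, PF9 to PF12 at 294, 295, 218 and 389, PAE9 to PAE11 at 140, 148 and 150, and PAE12 at 273. PAE12 was at the pair-fed level and the other PAE samples at the control level. At chr9:12492461-12493622 PAE12 stood at 105 fragments, near the other PAE samples at 92.7 to 99.4 and below the pair-fed samples at 139 to 205. The stretch was not higher in PF throughout: the window chr9:4000001-5000000 was lower in PF than in C on average (PF minus C = -0.40, limma SE = 0.0835, adjusted p = 0.00417), with a mean log2 height of 4.43, 4.11, 4.49 and 4.07 in C9 to C12 and 3.67, 3.68, 4.29 and 3.85 in PF9 to PF12. PF11 lay among the controls, and the window's own residuals give an SE of 0.160.

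At chr2:261369806-261371468 C9, C11, C12, PAE9 and PAE10 stood at 78.9, 63.2, 75.8, 70.6 and 63.2 fragments, and the other 7 samples at 9.02 to 21.1. High samples were found in C and PAE and none in PF, and C10, PAE11 and PAE12 stood with the PF samples. PF minus C was -1.83 there (limma adjusted p = 0.00983 within the regions with a peak in all 12 samples).

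The share of peaks on the X chromosome was lower in PAE than in C on average at the other ages too, by -0.122 percentage points at P1, -0.221 at P8 and -0.202 at P22 (n = 4 per group, two-sided exact permutation p = 0.286, 0.143 and 0.114, and 0.286, 0.190 and 0.190 adjusted over 4 ages). Animals of different ages are different animals, and some are littermates.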
